A study of Mus musculus with 6 samples.

Results

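The thrombospondins are a small family of secreted matricellular glycoproteins, and they were examined here together with a pair of their cell surface receptors in infarcted mouse hearts injected with miR-19a/19b mimics. The genes were taken by name: the ligands Thbs1, Thbs2, Thbs3, Thbs4 and Comp (5 genes) and the receptors Cd36 and Cd47 (2 genes), which makes 7 of the 26012 genes listed. All 7 were detected in every heart and all 7 passed the filter on low values, a mean normalized count of at least 1.

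Ventricles of 6 male mice of the C57BL/6 strain, aged 8 weeks, gave the RNA, collected 4 days after myocardial infarction (MI). In all 6 mice the left anterior descending coronary artery was ligated and 10 μg of mimic was injected into the heart with a lipid carrier, at several sites around the infarct. The 3 control hearts received a control mimic, and the 3 hearts called miR-19 hearts here received miR-19a and miR-19b mimics in equal parts. A miRNA mimic is a synthetic duplex that is loaded in the cell like the mature miRNA. Both groups carry the infarct and the injection, and no sham-operated or uninjected heart was analysed here, so the levels below describe the early healing infarct and not the effect of MI itself. The tissue was bulk ventricle, in which fewer cells of a type and less RNA per cell cannot be told apart.

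Thbs1 and Thbs2 assemble as trimers, and Thbs3, Thbs4 and Comp (cartilage oligomeric matrix protein) as pentamers. The trimers carry type 1 repeats, which the pentamers lack. Through these repeats they bind Cd36, a scavenger receptor that is also the main carrier of long-chain fatty acids into cardiomyocytes, while the carboxy terminal domain of Thbs1 binds Cd47, a widely expressed membrane protein known as the "do not eat me" signal of healthy cells. Thbs1 is known for activating latent TGF-beta and for restraining angiogenesis, and Thbs4 for its rise in stressed heart muscle and its role in the ER stress response.

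A miRNA is known to recognize messenger RNA mainly by base pairing of its seed, bases 2 to 8, and whether the mimics act on the members in this way was not tested. The mature mouse miRNAs of RefSeq (GRCm38.p6) are printed here with the seed in capitals, because they show what the injected pair shares. The sequences of the mimics themselves are not given in the sources used here.

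mmu-miR-19a-3p: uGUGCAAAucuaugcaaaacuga

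mmu-miR-19b-3p: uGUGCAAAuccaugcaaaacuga

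The miRNAs are both 23 bases long and differ at 1 position, U11C, counted from 1 at the 5′ end with the miR-19a base first. Their seeds are identical. miR-19a lies on chromosome 14 at chr14:115044048-115044070, plus strand, and miR-19b is encoded there at chr14:115044358-115044380 and again on chromosome X at chrX:52741991-52742013, minus strand.

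Matches to this seed were sought in the sense strand of the longest annotated 3′ UTR of each gene (GENCODE M21, GRCm38), as the 8-mer TTTGCACA, the 7-mer TTTGCAC that pairs with the whole seed, and the 7-mer TTGCACA that pairs with bases 2 to 7 and carries an A opposite base 1. No member held the 8-mer. The annotated sites of Thbs1 and Cd47 are printed with 11 bases on either side and the match in capitals, since these are the members in which a 7-mer lies in the 3′ UTR of the coding transcript.

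Thbs1 site: gtttttatatgTTGCACActgaattgaag

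Cd47 site: aatacatttttTTTGCACcctgtcccgtt

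The Thbs1 match, of the 7-mer kind with an A, lies at chr2:118126882-118126888 on the plus strand, from base 1853 of a 3′ UTR of 2104 bases. The Cd47 match pairs with the whole seed and lies at chr16:49911524-49911530 on the plus strand, from base 647 of a 3′ UTR of 4133 bases. Comp held 1 match as well, at chr8:70376043-70376049, but only in a transcript annotated for nonsense-mediated decay, and in the coding transcript of Comp these bases lie in an exon before the stop codon. Thbs2, with a 3′ UTR of 2013 bases, and Cd36, with one of 1660 bases, held no match, nor did Thbs4 (161 bases). Thbs3 held none in the 462 bases of a transcript annotated for nonsense-mediated decay, nor in the 253 bases of its coding transcript. A match is a match of letters only. Among the 15866 tested genes with an annotated 3′ UTR, 19.3% held at least 1 match of any of the 3 kinds, and among 3′ UTRs of 1000 bases or more, 29.2% did. The median log2 fold change was -0.03 for the 3070 genes with a match and 0.01 for the 12796 without, on the scale explained below. These sets also differ in 3′ UTR length, with medians of 2545 and 1025 bases, and the cause of the difference was not tested.

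Levels are normalized counts, each gene's reads over a library size factor, and each member rested on at least 420 reads in every heart (Comp in miR-19 replicate 2). Between genes they are compared only per length, as reads per kilobase of gene length scaled to the reads on genes of that library (RPKM). The groups were compared with limma on log2(normalized count + 1) over 21126 genes, with Benjamini-Hochberg adjustment over all of these.

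In limma, 0 of the 7 members passed an adjusted p-value of 0.05 in either direction, as did 0.0% of the genes tested in each direction, and the adjusted p-value of each member was 0.9996. At an unadjusted p-value under 0.05, Thbs1 and Thbs4 were lower in miR-19 hearts, 2 members of 7 where 2.63% of all genes tested were lower at this threshold. By the same threshold 0 members were higher, against 1.39% of all genes (4.01% in either direction). The members were chosen with earlier results of these data known, so these shares are not a test of the group. The edgeR quasi-likelihood test, DESeq2 and limma-voom on recovered reads also gave 0 members at the adjusted threshold and the same count of 2 lower and 0 higher members at the unadjusted threshold. The groups did not overlap for 2 members, Thbs4 and Cd47, with every miR-19 heart lower, as was the case for 5.3% of the genes tested. In either direction the groups were apart for 9.2% of genes, and 3.9% had every miR-19 heart higher, a pattern seen in 0 members.

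**Figure D1:**
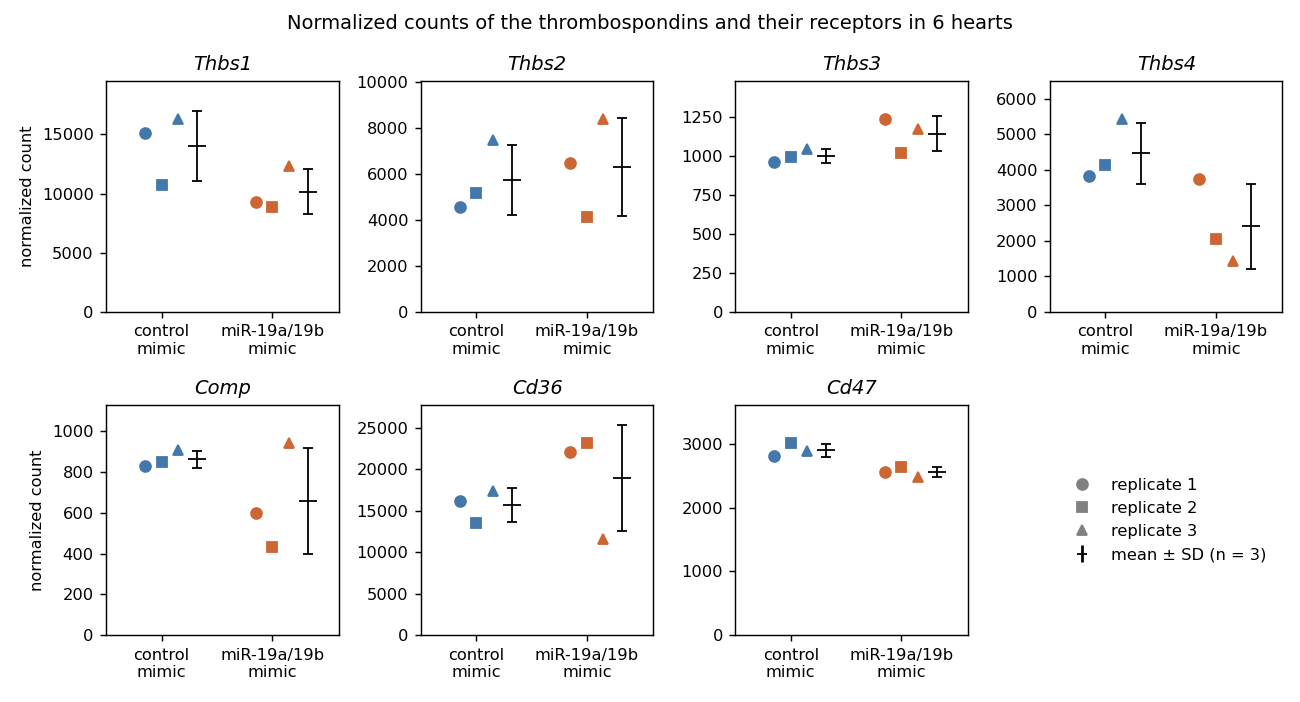
Normalized count of each member (vertical axis, from 0) in the 3 control and 3 miR-19 hearts; symbols are replicates and black bars the mean ± SD (n = 3). The Thbs4 and Cd47 points of the groups do not overlap, while Cd36 in miR-19 replicate 3 (11654) lies below every control heart and the other miR-19 hearts lie above.

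Thbs1 (ENSMUSG00000040152, chr2:118111876-118127133, GRCm38) was the most abundant thrombospondin. Its normalized counts were 15099, 10715 and 16265 in control replicates 1, 2 and 3, and 9278, 8872 and 12318 in miR-19 replicates 1, 2 and 3. The first and second miR-19 hearts lay below every control heart, and the third lay above the lowest control heart. The mean was 14026 ± 2926 (SD, n = 3) in control hearts and 10156 ± 1884 in miR-19 hearts, a ratio of 0.724. The log2 fold change was -0.46 with a standard error of 0.20 and a 95% interval from -0.91 to -0.01 (limma, unadjusted p = 0.0469, adjusted p = 0.9996). It ranged from -0.64 to -0.34 with each heart left out in turn, and its unadjusted p-value stayed under 0.05 in 2 of these 6 fits, those without control replicate 2 and without miR-19 replicate 3. Thbs1 is one of the genes that the study picked from these libraries for qRT-PCR, so its difference here is not independent of that choice. On the opposite strand, Gm29233 shares 208 exon bases with Thbs1 (3.42% of its exon bases), and the sources do not say that reads were counted by strand.

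Thbs2 (ENSMUSG00000023885, chr17:14665500-14694262), the other trimer and a regulator of collagen fibril assembly, did not separate the groups. Control mimic hearts had 4549, 5156 and 7449 normalized counts, and miR-19 hearts had 6445, 4116 and 8358. The lowest and the highest heart were both miR-19 hearts, 2.03-fold apart. The log2 fold change was 0.11 (standard error 0.27, 95% interval from -0.49 to 0.72, unadjusted p = 0.677 in limma), an interval that leaves room for a difference of either sign. It turned to -0.12 without miR-19 replicate 3 and to -0.03 without control replicate 1.

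Thbs4 (ENSMUSG00000021702, chr13:92751590-92794818) had the largest difference among the members. Its normalized counts were 3809, 4141 and 5411 in control hearts and 3725, 2060 and 1415 in miR-19 hearts. Every miR-19 heart was below every control heart, although replicate 1 lay only just below the lowest control. The means were 4454 ± 846 (SD, n = 3) and 2400 ± 1192, a ratio of 0.539, and the spread among miR-19 hearts, 2.63-fold from lowest to highest, was wider than the 1.42-fold among controls. The log2 fold change was -0.99 (standard error 0.31, 95% interval from -1.68 to -0.30, unadjusted p = 0.0103 and adjusted p = 0.9996 in limma). Its unadjusted p-value stayed under 0.05 in all 6 fits that left out 1 heart, with log2 fold changes from -1.37 without miR-19 replicate 1 to -0.67 without miR-19 replicate 3.

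Comp (ENSMUSG00000031849, chr8:70373548-70382065), a pentamer best known from cartilage and tendon, was even among controls and uneven among miR-19 hearts. The controls had 827, 850 and 906 normalized counts, a coefficient of variation of 4.75%. The miR-19 hearts had 598, 433 and 940, a coefficient of variation of 39.3%. Replicates 1 and 2 were below every control and replicate 3 was the highest of all 6 hearts. Comp had a log2 fold change of -0.46 (standard error 0.24, 95% interval from -0.998 to 0.07, unadjusted p = 0.0832, adjusted p = 0.9996 in limma). Without miR-19 replicate 3 it was -0.76 with an adjusted p-value of 0.0210 in limma, the only one of the 14 alternative fits in which a member passed the adjusted threshold. Without miR-19 replicate 2 the log2 fold change of Comp was -0.20 (unadjusted p = 0.327 in limma). In the fit without replicate 3, 164 of all genes passed as lower and 383 as higher.

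Thbs3 (ENSMUSG00000028047, chr3:89215180-89226837), the remaining pentamer, varied least among the ligands. Control mimic hearts had 957, 993 and 1045 normalized counts and miR-19 hearts had 1233, 1020 and 1175. Replicates 1 and 3 of the miR-19 group were above every control, and replicate 2 was within their range. For Thbs3 the log2 fold change was 0.19 (standard error 0.11, 95% interval from -0.05 to 0.43, unadjusted p = 0.107 in limma). Mtx1 shares 318 exon bases with it on the opposite strand (6.59% of the exon bases of Thbs3), and had between 261 and 331 normalized counts, with a log2 fold change of 0.07.

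Cd36 (ENSMUSG00000002944, chr5:17781690-17888801) had the highest mean normalized count of the members in both groups. Control mimic hearts had 16192, 13501 and 17416 normalized counts, and miR-19 hearts had 22041, 23130 and 11654. The miR-19 group thus held both the highest values and the lowest. The log2 fold change was 0.21 (standard error 0.26, 95% interval from -0.38 to 0.81, unadjusted p = 0.435 in limma), and it was 0.53 without miR-19 replicate 3 (unadjusted p = 0.00221, adjusted p = 0.0660 in limma). It was 0.04 without miR-19 replicate 2, 0.07 without miR-19 replicate 1 and 0.11 without control replicate 2, with unadjusted p-values from 0.734 to 0.897 in limma.

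Cd47 (ENSMUSG00000055447, chr16:49855618-49915010) was the most even member. The controls had 2807, 3008 and 2881 normalized counts, and the miR-19 hearts had 2554, 2638 and 2486. All 3 miR-19 hearts were below all 3 controls, by a small margin. The means were 2899 ± 101 (SD, n = 3) and 2560 ± 76.2, a ratio of 0.883. For Cd47 the log2 fold change was -0.18 (standard error 0.09, 95% interval from -0.39 to 0.03), with an unadjusted p of 0.0884 and an adjusted p of 0.9996 in limma. It stayed between -0.20 and -0.15 with each heart left out in turn.

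**Figure D2:**
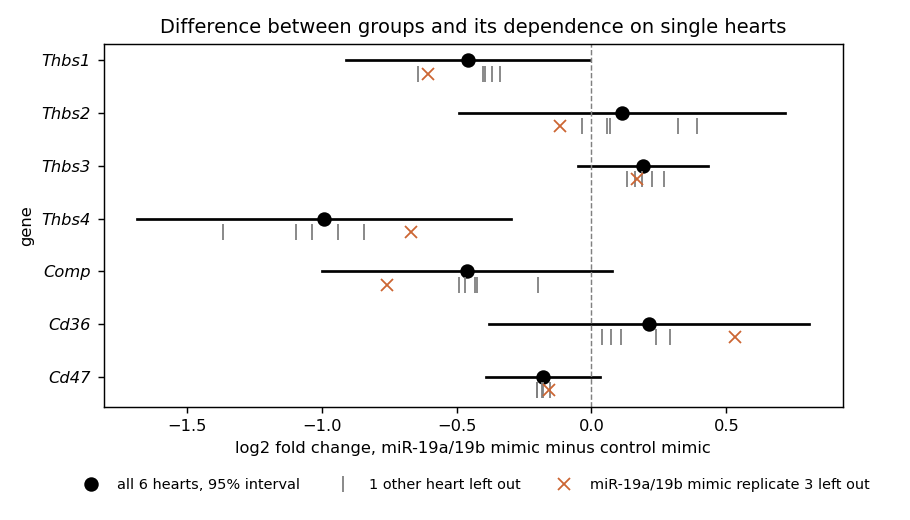
Log2 fold change of each member, miR-19a/19b mimic minus control mimic (horizontal axis): black dots and lines are the limma estimate and 95% interval from all 6 hearts, grey ticks are fits with 1 heart left out, and orange crosses are fits without miR-19 replicate 3. The ticks of Thbs1, Thbs4, Comp and Cd47 all lie below 0, and those of Thbs3 and Cd36 all lie above 0. Those of Thbs2 lie on both sides.

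Per length, Cd36 stood highest in control hearts at 203.9 ± 19.7 RPKM (SD, n = 3). Thbs1 followed at 107.5 ± 19.4 RPKM and Thbs4 at 63.1 ± 10.4 RPKM. Thbs2 stood at 45.0 ± 10.8 RPKM, and it overlapped with Thbs4 among the control hearts, so the order of this pair is not set by these data. Cd47 had 25.7 ± 1.6 RPKM, Comp 16.6 ± 0.6 RPKM and Thbs3 9.7 ± 0.4 RPKM, and none of these overlapped with its neighbour among controls. Over all 6 hearts Comp was above Thbs3 in 4, and Thbs4 was above Thbs2 in 4. By its mean level per length, Thbs1 was above 97.9% of the genes listed and Thbs3 above 81.1%.

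The summed level per length of the 5 thrombospondins was 231, 215 and 279 RPKM in control hearts and 185, 142 and 224 RPKM in miR-19 hearts, and the groups overlapped. The sum of the pentamers Thbs3, Thbs4 and Comp was 79.2, 87.7 and 101.2 RPKM in controls and 71.0, 45.5 and 52.9 RPKM in miR-19 hearts, without overlap. Thbs4 made up most of this sum, 63.1 of a mean of 89.4 RPKM in controls, and it was the only pentamer whose own groups were apart. Thbs3 and Comp each overlapped between the groups. Of single genes tested, 5.3% had every miR-19 heart lower. For the sum of the trimers Thbs1 and Thbs2 the groups overlapped, with values from 96.6 to 178.2 RPKM. Thbs1 made up between 35.9% and 50.2% of the family sum in every heart. The share of Thbs4 was between 23.4% and 28.3% in control hearts, and 26.6%, 19.7% and 9.56% in miR-19 replicates 1, 2 and 3. Thbs2 took 15.5% to 20.4% of the sum in controls and 21.9% to 31.4% in miR-19 hearts, without overlap. The share of Thbs3 did not overlap either, at 3.51% to 4.62% in controls and 5.41% to 6.66% in miR-19 hearts. Shares add up to the whole, so they are not independent of each other.

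**Figure D3:**
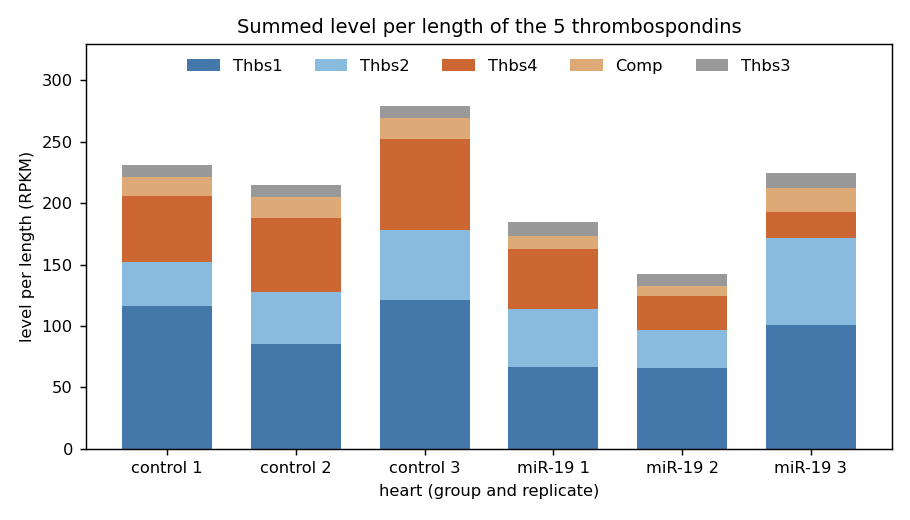
Stacked level per length (RPKM, vertical axis from 0) of the 5 thrombospondins in each of the 6 hearts. Thbs1 (dark blue) is the largest part in every heart, and the Thbs4 part (dark orange) is smallest in miR-19 replicate 3, at 21.4 RPKM.

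Ratios within a heart do not depend on the scaling of its library, and 4 ratios of levels per length were compared by two-sided exact permutation tests, in which 3 against 3 hearts cannot give a p-value below 0.1. The ratio of Thbs1 to Thbs2 was 3.24, 2.03 and 2.13 in control hearts and 1.40, 2.10 and 1.44 in miR-19 hearts (exact p = 0.2, adjusted over the 4 ratios 0.533). The ratio of Thbs4 to Comp was 3.40, 3.59 and 4.40 in controls and 4.59, 3.51 and 1.11 in miR-19 hearts (exact p = 0.8). This ratio lay between 3.40 and 4.59 in 5 hearts and was lowest in miR-19 replicate 3. Thbs1 to Cd36 was 0.551, 0.469 and 0.552 in controls and 0.249, 0.227 and 0.625 in miR-19 hearts (exact p = 0.4), and Thbs1 to Cd47 ranged from 2.92 to 4.91 (exact p = 0.3). None of these ratios separated the groups.

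Hearts differed in the markers of their cell types, and miR-19 replicate 3 stood apart. All 10 cardiomyocyte markers were detected in every heart, and their summed normalized counts were 560275 to 741228 in control hearts, 1026070 and 924854 in miR-19 replicates 1 and 2, and 344462 in replicate 3. Cd36 has the same order of high and low groups of hearts, with replicates 1 and 2 above and replicate 3 below every control. The 10 endothelial markers, of another cell type that carries Cd36, summed to 36252 to 45096 in controls and 39081 to 40554 in miR-19 hearts. Of 8 adipocyte markers, the sum was 99.95% Fabp4, which endothelial cells also express, and the other 7 summed to between 1.95 and 21 normalized counts, with Lep at 0 in all hearts. The part of these cell types in the difference of Cd36 was not tested.

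Fibroblasts are a source of thrombospondins in the healing infarct. Their 10 markers, 52.3% Col1a1, were all detected and summed to 505772, 572430 and 620283 in control hearts and to 549338, 439095 and 702015 in miR-19 hearts. Thbs2 has the same order as these sums within the controls and has its lowest and its highest value in the same hearts. Single markers of the list did not all share this. Col3a1 was highest in control replicate 2 (220448) and Postn in control replicate 3 (81486), though both were lowest in miR-19 replicate 2, as Thbs2 was. The 12 tendon and cartilage markers, 68.3% Cilp, were detected in every heart and summed to 6626, 7404 and 9355 in controls and 7330, 4627 and 4462 in miR-19 hearts, with replicates 2 and 3 below every control. This sum is mostly the count of Cilp alone, and it does not show that tendon or cartilage cells were present. Thbs4 was lower than every control in miR-19 replicates 2 and 3 too, and also in replicate 1, where the marker sum lay within the control range. Comp went the other way in miR-19 replicate 3, where it was highest of all hearts (940) and the marker sum was lowest. For platelets, which store Thbs1 in their granules, 9 of 10 markers were detected in every heart. The platelet sum, 82.3% Pf4, was 2602 to 3667 in controls, 2685 and 3395 in miR-19 replicates 1 and 2, and 5593 in replicate 3. It is mostly the count of Pf4 alone, and it does not show how many platelets were present. The part of these cells in the differences of Thbs1, Thbs2 and Thbs4 was not tested.

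Macrophage markers (10 of 10 detected in every heart) summed to 88948 to 105106 in controls and 73322 to 111471 in miR-19 hearts, and smooth muscle and pericyte markers (9 of 9) to 35921 to 47907 and 36753 to 41469. Neutrophil markers, 7 of 9 detected in every heart, summed to 1748 to 2042 and to 847 to 2595. The skeletal muscle markers, 8 of 14 detected in every heart and 76.5% Ckm, which heart muscle also expresses, summed to 2897 to 4376 in controls and to 10982, 6396 and 1812 in miR-19 replicates 1, 2 and 3. Each of these ranges overlapped between the groups, and their part in the members' differences was not tested.

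**Figure D4:**
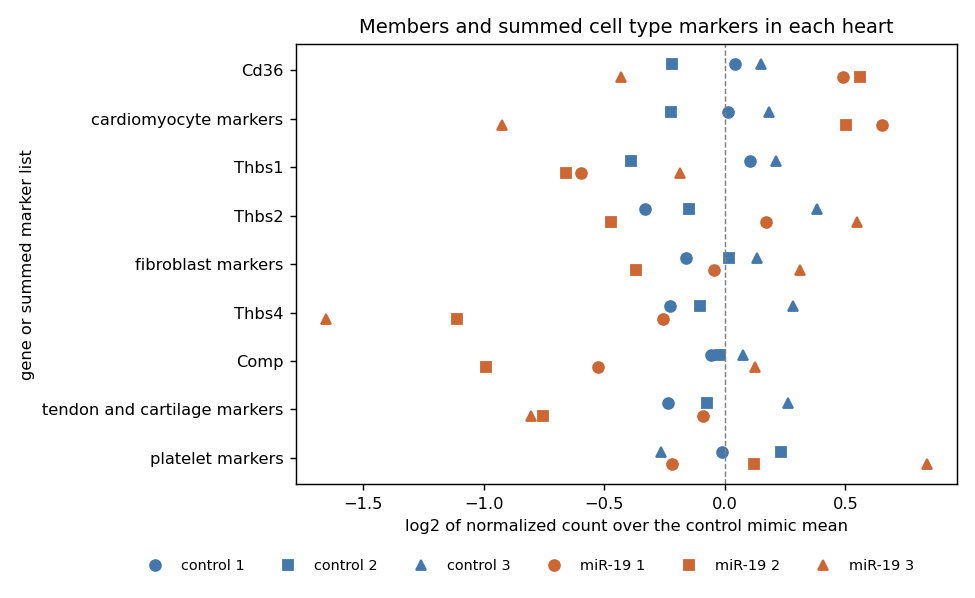
Log2 of the normalized count over the control mimic mean (horizontal axis) in each heart, for Cd36, Thbs1, Thbs2, Thbs4 and Comp and for the summed counts of 4 marker lists; blue points are control hearts and orange points miR-19 hearts, with replicates as circle, square and triangle. Replicate 3 of the miR-19 group (orange triangle) is lowest for cardiomyocyte markers (344462 summed counts), tendon and cartilage markers (4462), Cd36 and Thbs4. It is highest for fibroblast and platelet markers, Thbs2 and Comp.

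Genes whose values followed a member most closely over the 6 hearts were ranked by the root-mean-square difference in log2(normalized count + 1), each gene relative to its own mean, among the 11609 genes whose mean was at least 100 normalized counts. For Thbs1 they were Piezo2, Cx3cr1 and Prkar1b, with differences of 0.07 to 0.11, where Thbs1 itself varied by 0.33 around its mean. For Thbs2 they were Gli3, Msc and Pdgfrl (0.12 to 0.13), the last a gene of the fibroblast list. For Thbs4 the nearest were 1110002E22Rik, Cilp and Xirp2 (0.22 to 0.27), and for Comp they were Ankrd13d, Adamts12 and Glis3 (0.08 to 0.14). Adamts12 encodes a protease that is known to cleave Comp. For Cd36 they were Msrb2, Cox4i1 and Uqcr11 (0.02 to 0.04), of which Cox4i1 and Uqcr11 encode subunits of the respiratory chain. Thbs3 and Cd47 varied little, by 0.13 and 0.10 around their means, and were matched by Trp53inp1, Igdcc4 and Setd1b and by Pvrl3, Spcs3 and Supt20. With 6 hearts and this many genes, such likeness is a description of these libraries.

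The genes that act with the members were then examined by lists. Of the receptors and partners of thrombospondins outside the members, 24 genes such as integrins, Lrp1 and Sirpa, 0 passed the adjusted or the unadjusted threshold, and the median log2 fold change was -0.14 against 0.00 for all genes tested. Itga9, an integrin chain, was nearest the unadjusted threshold, with 2872 ± 196 (SD, n = 3) and 2288 ± 463 normalized counts and a log2 fold change of -0.35 (unadjusted p = 0.0523 in limma). Itgav, which pairs with Itgb3 as an RGD-binding receptor of thrombospondins, had 2447 ± 150 and 2074 ± 235. Stab2, a scavenger receptor, was low, at 15.9 ± 2.3 and 24.4 ± 5.7. The most abundant partners were Lrp1, the endocytic receptor that clears thrombospondins, at 30025 ± 1658 and 29426 ± 5313, and Itgb1 at 25878 ± 1368 and 22614 ± 1012.

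Of 19 genes of latent TGF-beta and its response, 0 passed the adjusted threshold, 3 were lower at the unadjusted threshold and 0 higher, and 16 had a log2 fold change below 0 (median -0.09). Lrrc32, which holds latent TGF-beta on the cell surface, had 1447 ± 78.8 (SD, n = 3) and 1140 ± 97.7 normalized counts, with a log2 fold change of -0.35 (unadjusted p = 0.00881 in limma). Ltbp2, a latent TGF-beta binding protein, had 14253 ± 1928 and 9815 ± 1732, a log2 fold change of -0.55 (unadjusted p = 0.0118 in limma). Tgfb2 had 1515 ± 99.1 and 1144 ± 210, a log2 fold change of -0.42 (unadjusted p = 0.0142 in limma), and the study picked it from these libraries as well. For these 3 genes and for Itgb8, 4 of the list, every miR-19 heart was below every control, as was the case for 5.3% of all genes tested.

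Of 16 genes of nitric oxide and angiogenic signalling that act below Cd36 and Cd47, 0 passed the adjusted threshold, and the median log2 fold change was -0.03. At the unadjusted threshold 1 was lower and 1 was higher, beside 2.63% and 1.39% of all genes tested. Prkg1, the cGMP-dependent kinase, had 289 ± 33.9 (SD, n = 3) and 209 ± 36.6 normalized counts, a log2 fold change of -0.47 (unadjusted p = 0.0180 in limma). Fas, the death receptor, had 335 ± 18.0 and 402 ± 35.8, a log2 fold change of 0.26 (unadjusted p = 0.0493 in limma). Vegfa, whose action Thbs1 opposes, had 4492 ± 767 and 5454 ± 2318, a difference smaller than the spread of the miR-19 hearts.

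Of 20 genes of the Atf6 arm of the ER stress response, in which Thbs4 is known to act, 0 passed the adjusted threshold, and the median log2 fold change was 0.04. At the unadjusted threshold 1 was lower and 0 were higher, beside 2.63% and 1.39% of all genes tested. Mbtps2, the protease that makes the last cut in Atf6, had 436 ± 22.5 (SD, n = 3) and 363 ± 36.1 normalized counts, a log2 fold change of -0.27 (unadjusted p = 0.0450 in limma). The chaperone Hspa5 had 13491 ± 1504 and 14497 ± 1643 and Calr had 16458 ± 798 and 17120 ± 3311, and both overlapped between the groups. Herpud1 had 2974 ± 612 and 4355 ± 1651, and its groups overlapped too.

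Of 47 other genes for proteins with thrombospondin type 1 repeats, among them the Adamts proteases and the Ccn proteins, 0 passed the adjusted threshold. At the unadjusted threshold 4 were lower and 0 higher, beside 2.63% and 1.39% of all genes tested. The median log2 fold change was -0.10. Ism1, an inhibitor of angiogenesis, had 212 ± 55.2 (SD, n = 3) and 117 ± 19.2 normalized counts, a log2 fold change of -0.83 (unadjusted p = 0.00471 in limma). The others were Thsd4, with a log2 fold change of -0.59, Adamts20 with -0.65 and Ctgf with -0.54, the last of which the study also picked. Adamts2, the procollagen protease, was abundant and had 9009 ± 877 and 8750 ± 1416.

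Of 21 matrix genes whose products bind the pentamers or lie beside them, 0 passed the adjusted threshold, 2 were lower at the unadjusted threshold and 0 higher, and 18 had a log2 fold change below 0 (median -0.17). Both are cartilage collagens with few reads. Col2a1 had 52.1 ± 25.4 (SD, n = 3) and 22.3 ± 7.8 normalized counts, a log2 fold change of -1.14 (unadjusted p = 0.0165 in limma), and was picked by the study. Col9a2 had 187 ± 93.4 and 107 ± 17.1, a log2 fold change of -0.70 (unadjusted p = 0.0462 in limma). Col3a1, a fibrillar collagen of the scar, had 186546 ± 33265 and 172303 ± 33384, so its means lay within 1 SD of each other.

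Of 19 genes of fatty acid uptake and oxidation, the pathway that Cd36 feeds, 0 passed the adjusted threshold, 1 was higher at the unadjusted threshold and 0 lower. In 18 of the 19 the log2 fold change was above 0, with a median of 0.26, beside 0.21 for Cd36. Slc27a1, another carrier of fatty acids, had 3179 ± 96.5 (SD, n = 3) and 4140 ± 643 normalized counts, a log2 fold change of 0.37 (unadjusted p = 0.0209 in limma), without overlap. Lpl, the lipase that frees fatty acids from lipoproteins, had 31969 ± 8402 and 46367 ± 23750, and Ppargc1a, the coactivator of oxidative metabolism, had 967 ± 200.1 and 2252 ± 1395. Both Lpl and Ppargc1a were above every control in miR-19 replicates 1 and 2. In miR-19 replicate 3 they were below every control, at 19131 and 644 normalized counts. Slc27a1 stayed above every control in that heart, at 3402. The SDs of Lpl and Ppargc1a in miR-19 hearts were wide, as for Cd36, in the group whose cardiomyocyte markers ranged from 344462 to 1026070. The part of these markers in the list was not tested.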

How the data were processed

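Poly-A RNA from the ventricles of 6 mouse hearts was sequenced as paired-end reads. The authors removed adapter and low-quality reads, aligned with STAR 2.5.1b and counted reads per gene with HTSeq 0.6.0. The signal the authors deposited is a normalized count, the gene's count over a size factor of its library, and the submitters' processing notes list DESeq2 1.10.1. They name genome build mm9, but of 25884 gene identifiers found in GENCODE M21 (GRCm38), 99.9% were on the same chromosome and 82.7% had the same start and end, 4 members among them, so the files' coordinates are given as GRCm38. The deposited gene length, in another column (other unit), gave RPKM. The authors also deposited the fold changes, p-values and gene calls of their own comparison, which were not used.

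All values (100%) were whole multiples of 1 read within 0.01 read, and recovered reads on genes came to 19398196 to 23645308 per heart. Replicate pairs had a chi-square of at least 9.49 for each degree of freedom, beyond counting noise. Members were tested with limma 3.58.1 (R 4.3.3, trended prior) on log2(normalized count + 1). The study's methods name edgeR on counts. Since the values were normalized, edgeR 4.0.16, DESeq2 1.42.0 and limma-voom on recovered reads are alternatives, beside TMM scaling, a pseudocount of 0.1, no filter, at least 10 reads in every heart, the replicate number as a block, and each heart left out. Tested on simulated reads of 21126 genes and 6 hearts, limma found 78.5% of 200 genes given a 2-fold change, beside 9 calls at unchanged genes. The changed genes were drawn only from genes with higher mean counts, and each gene was simulated independently. Deviations shared by many genes of a heart were thus absent. In the data, pairs with miR-19 replicate 3 had a chi-square of 123 and 110 for each degree of freedom, against 10.3 for miR-19 replicates 1 and 2. The simulated share is therefore not the share of 2-fold changes that these hearts would reveal.

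Members and lists were chosen with earlier results of these data known. List genes named are up to 3 of lowest unadjusted p and up to 2 of highest mean, plus some whose role is explained. Protein motifs were not analysed here, since no protein table was used. No other transcript aligned to a member over 100 bases at 95% identity or more, apart from the 2 overlapping genes.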

Additional observations from a re-analysis of the deposited data

How the results depend on the processing

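Under the 8 alternatives with all 6 hearts, 0 members passed the adjusted threshold and each member kept its direction. The count of lower members at the unadjusted threshold, 2 in limma, was 1 with at least 10 reads in every heart, where Thbs1 had an unadjusted limma p of 0.0557. With each heart left out in turn, it ranged from 1 to 3, higher members at that threshold from 0 to 1, lower members at the adjusted threshold from 0 to 1 (Comp, without miR-19 replicate 3) and higher members at it from 0 to 0. Without that heart Cd36 was the higher member, and without miR-19 replicate 2 it was Thbs3. Thbs2 ranged up to 0.39 and changed sign, to -0.03 without control replicate 1 and to -0.12 without miR-19 replicate 3. Genes at the adjusted threshold, 0 lower and 0 higher in limma, were 28 and 1 with DESeq2, and 164 and 383 without miR-19 replicate 3. At the unadjusted threshold, 555 and 293 in limma, the higher genes were 177 with DESeq2 and 147 with at least 10 reads in every heart. The lower genes were 369 without control replicate 2, and the counts were 1289 and 1778 without miR-19 replicate 3. The causes were not tested. The replicate number as a block changed no call: the counts were 2 lower and 0 higher members at the unadjusted threshold and 0 at the adjusted one, with Thbs4 at -0.99. Deviations of same-numbered hearts from their group means had correlations across genes of -0.01, -0.02 and -0.11. Hearts of unlike number had -0.10 to 0.12. With 3 hearts per group this check cannot decide whether same-numbered hearts were handled together, and the labels name no pairing. Each member had at least 420 reads per heart. With the spread between these 6 hearts, the 95% intervals of Thbs2, Thbs4, Comp and Cd36 span more than 1 log2 unit.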
